A study of Mus musculus with 27 samples.

Results

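A stretch of mouse chromosome 16 that runs from 18 to 40 Mb (GRCm38) and holds Xxylt1, Mylk and Arhgap31 was examined in whole retinas. Members were the genes whose lowest annotated start lies in that window and whose mean count over the 27 libraries was 20 or more. St6gal1 and symbols beginning with Rpl, Rps, Nduf, Cox, Uqcr or Atp5 were left out. Described here are 156 genes out of 55487 annotated, and each of the 156 was among the 17409 genes with enough counts for testing. Of the 524 genes annotated in the window, 364 had a lower mean count, 223 of them with no count in any library, and 3 were left out by symbol. Of the members, 148 are protein coding. The stretch was picked because Xxylt1, Mylk and Arhgap31 differed between C3 genotypes in these same libraries. All C3 differences of members are therefore given as a description, and the tests reported are those of the Gne genotype, of the Gne by C3 interaction, of the difference of the C3 effect between sequencing runs and of the run itself.

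The mice were 9 months old and belonged to 4 genotypes. Wildtype mice carried both Gne and both C3 copies (Gne+/+, C3+/+; 7 libraries), and Gne+/- mice had lost 1 Gne copy with C3 intact (7 libraries). C3-/- mice had lost C3 with Gne intact (7 libraries), and Gne+/- C3-/- mice had lost 1 Gne copy together with C3 (6 libraries). Sialic acid synthesis begins with the enzyme that Gne encodes, and the protein that C3 encodes is the hub of the complement system. C3 loss came from crosses with a C3 knock-out mouse. The labels limit neither knock-out to a cell type and give no strain, so C3 loss and other sequence that came in with the cross cannot be told apart. Each library is labelled with a mouse number and with sequencing run 1 or 2; run 1 held 5 wildtype, 5 Gne+/-, 4 C3-/- and 4 Gne+/- C3-/- libraries, and run 2 held 2, 2, 3 and 2. "C3 intact" below joins wildtype and Gne+/- (10 libraries in run 1 and 4 in run 2), and "C3 lost" joins the other 2 genotypes (8 and 5).

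Genes that lie side by side on a chromosome need not share a function, and the members range from glycan enzymes to synaptic adhesion proteins. Xxylt1 encodes a xylosyltransferase of the endoplasmic reticulum that lengthens the O-linked sugar chain on the EGF-like repeats of Notch receptors. Mylk encodes myosin light chain kinase, which calcium and calmodulin switch on and which drives contraction of smooth muscle, and Arhgap31 encodes a GTPase-activating protein that turns off Cdc42 and Rac1, switches of the actin cytoskeleton.

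Library totals ranged from 13.5 to 34.2 M counts (median 18.5 M), with 16459 to 22938 genes detected. C3 itself measured 100 to 285 CPM (counts per M counts of the library, scaled with TMM factors) in C3-intact libraries of run 1 and 53.9 to 95.6 in those of run 2. In C3-lost libraries it measured 0 to 1.83 and 0 to 3.60 CPM, so the C3 labels held in every library. The 5 rod markers read (Gnat1, Pde6a, Pde6b, Sag, Nrl) summed to 11391 CPM or more in each library, and 1 bipolar marker (Pcp2) and 1 ganglion cell marker (Nefl) were listed at 0. The mean of 4 Y-linked genes was above 10 CPM in 2 of 10 C3-intact and 6 of 8 C3-lost libraries of run 1. In run 2 it was so in 4 of 4 and 2 of 5. By genotype, this held in run 1 for 0 of 5 wildtype, 2 of 5 Gne+/-, 4 of 4 C3-/- and 2 of 4 Gne+/- C3-/-. In run 2 the counts were 2 of 2, 2 of 2, 0 of 3 and 2 of 2. Between wildtype and C3-/- libraries of a run, C3 genotype and the Y-linked reading therefore cannot be told apart. In tissue RNA, fewer cells of a type and less RNA per cell cannot be told apart.

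The kit primes on the poly(A) tail and reads the ends of transcripts, so the sequence just before the tail shows where the signal of a gene should arise. The last 30 bases of the longest-reaching annotated coding transcript are given for Xxylt1, Mylk and Arhgap31, whose C3 difference passed the threshold of an adjusted p under 0.05, from GENCODE M21 (GRCm38) and 5′ to 3′ on the transcript strand. Capitals mark the polyadenylation signals AATAAA and ATTAAA, searched on that strand only.
Xxylt1, chr16:30955144-30955173, minus strand: ataAATAAAtaggATTAAAgtgtttccaaa
Mylk, chr16:35002391-35002420, plus strand: cacaatttttaAATAAAggataccacagtg
Arhgap31, chr16:38598340-38598369, minus strand: tgcaaagccAATAAAatatatcagtggata
Each of these ends holds at least 1 of the signals, as do 68.0% of the ends of the same length over 14382 tested coding genes and 67.3% of those over 147 members. Mylk has a second annotated coding end 1057 bases before the end of the gene, and Xxylt1 and Arhgap31 have 1 each.

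Reads lying where annotated genes overlap were not counted, which bears on Mylk. The last 500 bases of Mylk are shared in full with Gm21691. The Mylk counts therefore came from other stretches of the gene. Introns were open to counting, and where in the gene the reads lay was not examined. No overlap touches the last 500 bases of Xxylt1, Arhgap31 or Upk1b. Over all members, 43 of 156 were overlapped along 5% or more of their length.

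For Xxylt1 (ENSMUSG00000047434, chr16:30955144-31081432), the C3-intact libraries of run 1 ranged from 14.8 to 44.3 CPM (median 23.8) and the C3-lost ones from 4.66 to 8.94 (median 7.07). In run 2 it measured 41.8 and 28.5 CPM in wildtype, 32.2 and 25.4 in Gne+/-, 19.2, 20.02 and 15.1 in C3-/-, and 23.2 and 14.9 in Gne+/- C3-/- retinas. All C3-lost libraries lay below all C3-intact ones of their run, although those of run 2 reached the range of C3-intact libraries of run 1. The log2 fold change was -1.49 (SE 0.200).

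Mylk (ENSMUSG00000022836, chr16:34745210-35002420) differed less. It ranged from 35.8 to 65.9 CPM (median 46.4) in C3-intact and from 25.0 to 35.8 (median 31.4) in C3-lost libraries of run 1, where the 2 ranges met. In run 2 it measured 72.4 and 77.8 CPM in wildtype, 88.5 and 71.4 in Gne+/-, 40.5, 53.3 and 55.6 in C3-/-, and 69.4 and 50.01 in Gne+/- C3-/- retinas, with no overlap. The log2 fold change was -0.60 (SE 0.0958). It was -0.50 without the run term and -0.50 in run 2 alone, and under each of these settings Mylk did not pass the threshold.

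Upk1b (ENSMUSG00000049436) encodes a tetraspanin known as a uroplakin of the bladder lining, and was the faintest of the members past the threshold. It ranged from 0.908 to 12.5 CPM (median 7.09) in C3-intact and from 0 to 2.63 (median 0.822) in C3-lost libraries of run 1. In run 2 it measured 2.64 and 2.11 CPM in wildtype, 5.20 and 4.48 in Gne+/-, 0.919, 3.44 and 1.95 in C3-/-, and 1.48 and 0 in Gne+/- C3-/- retinas. The sets overlapped in both runs. The log2 fold change was -2.27 (SE 0.550), and its call ended when any 1 of 18 libraries was left out, with values of -2.39 to -2.14. Those libraries were wildtype 1, 2, 4 and 5, Gne+/- 1, 2, 3, 5, 7 and 8, C3-/- 1, 2, 5, 7 and 9, and Gne+/- C3-/- 3, 5 and 6.

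Arhgap31 (ENSMUSG00000022799, chr16:38598340-38713274) was the member past the threshold that was higher in C3-lost retinas. It ranged from 17.1 to 58.7 CPM (median 35.6) in C3-intact and from 64.4 to 102 (median 73.3) in C3-lost libraries of run 1. In run 2 it measured 42.8 and 27.6 CPM in wildtype, 29.1 and 30.1 in Gne+/-, 79.0, 66.7 and 60.4 in C3-/-, and 63.6 and 70.5 in Gne+/- C3-/- retinas. Every C3-lost library lay above every C3-intact one, across runs as well as within them. The log2 fold change was 1.08 (SE 0.135), a 2.11-fold higher level.

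**Figure D1:**
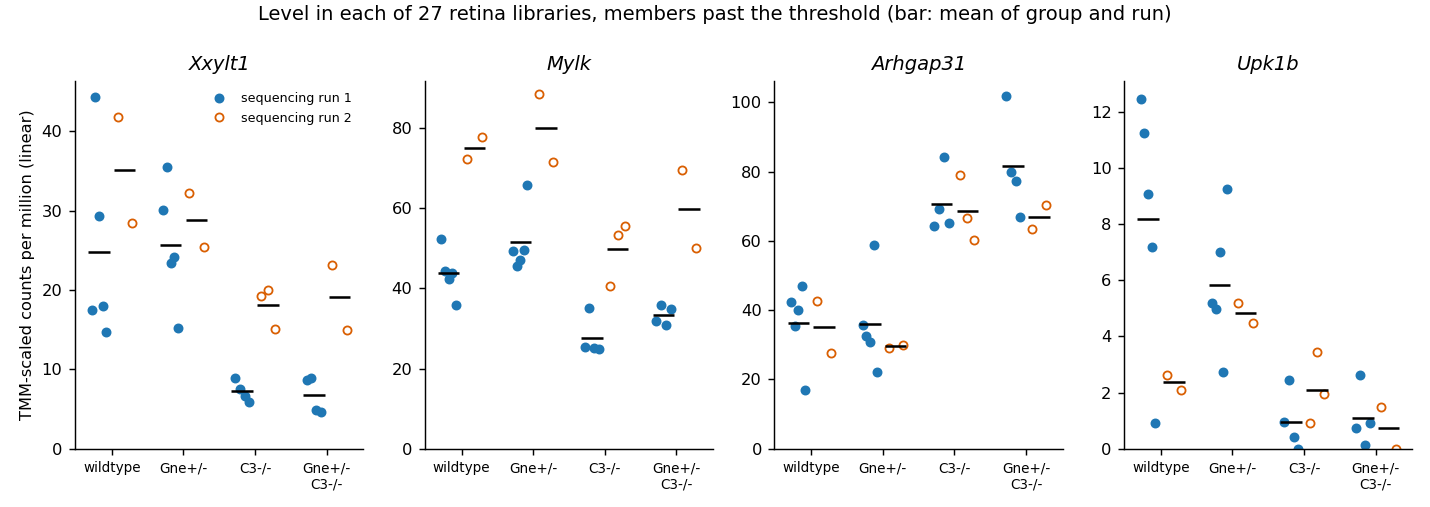
Level of the 4 members past the threshold in each of 27 retina libraries, in TMM-scaled CPM on linear axes that differ between panels. Filled points are libraries of run 1, open points those of run 2, and bars the mean of a genotype in a run. Arhgap31 sits at 60.4 CPM or more in every C3-lost library and at 58.7 or less in every C3-intact one, and Xxylt1 in C3-lost libraries sits at 4.66 to 8.94 CPM in run 1 and 14.9 to 23.2 in run 2.

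These 4 made up the members past the threshold, 1 higher and 3 lower out of 156, or 2.56%, where 0.569% of all 17409 tested genes passed, 0.287% higher and 0.281% lower. The share is printed beside the count because the stretch was chosen on this contrast, and nothing is read from it. The median log2 fold change was -0.02 over the members and -0.003 over all tested genes, and the median absolute log2 fold change was 0.153 and 0.172. Of the members, 63 had values above 0 and 93 below. The quartiles of the 152 members that did not pass were -0.17 and 0.15. With Gne intact, C3-/- against wildtype put 3 members past the threshold (Xxylt1, Mylk and Arhgap31; 0.167% of all tested genes). Within each run these 2 genotypes also differed wholly in the Y-linked reading, in opposite directions in the 2 runs. With the mean log2 CPM of the Y-linked genes as a term, the same 3 members passed. Over all 17409 tested genes 32 then passed, against 29 without the term. The part of the Y-linked reading in these differences was not tested. With 1 Gne copy lost, Gne+/- C3-/- against Gne+/- put 2 past it (Xxylt1 and Arhgap31; 0.19%). These 2 comparisons share no library, but their members were chosen on both. Xxylt1 had log2 fold changes of -1.47 (SE 0.271) and -1.52 (SE 0.285) in them, Mylk -0.63 (SE 0.132) and -0.57 (SE 0.137), and Arhgap31 0.98 (SE 0.187) and 1.17 (SE 0.193).

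The 4 genes were not next to each other. In front of Xxylt1 lay 77 members, whose log2 fold changes had a median of -0.01 and ranged from -1.06 to 1.06. From Xxylt1 to Mylk lay 3.79 Mb, start to start, with 39 members (median -0.02), and from Mylk to Arhgap31 3.85 Mb with 33 members (median -0.03). Upk1b starts 0.175 Mb beyond Arhgap31, with 1 member between them, the galactosyltransferase gene B4galt4 at -0.41 (SE 0.178). In that interval a gene that was higher in C3-lost retinas and one that was lower lay on either side of a member that did not pass. Elsewhere on the chromosome, 1 of 136 tested genes below the window passed (Clec16a, -0.40) and 3 of 216 above it (Slc35a5 0.79, Cd47 -0.61 and Dubr 1.13). Of the tested genes on other chromosomes, 0.534% passed.

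**Figure D2:**
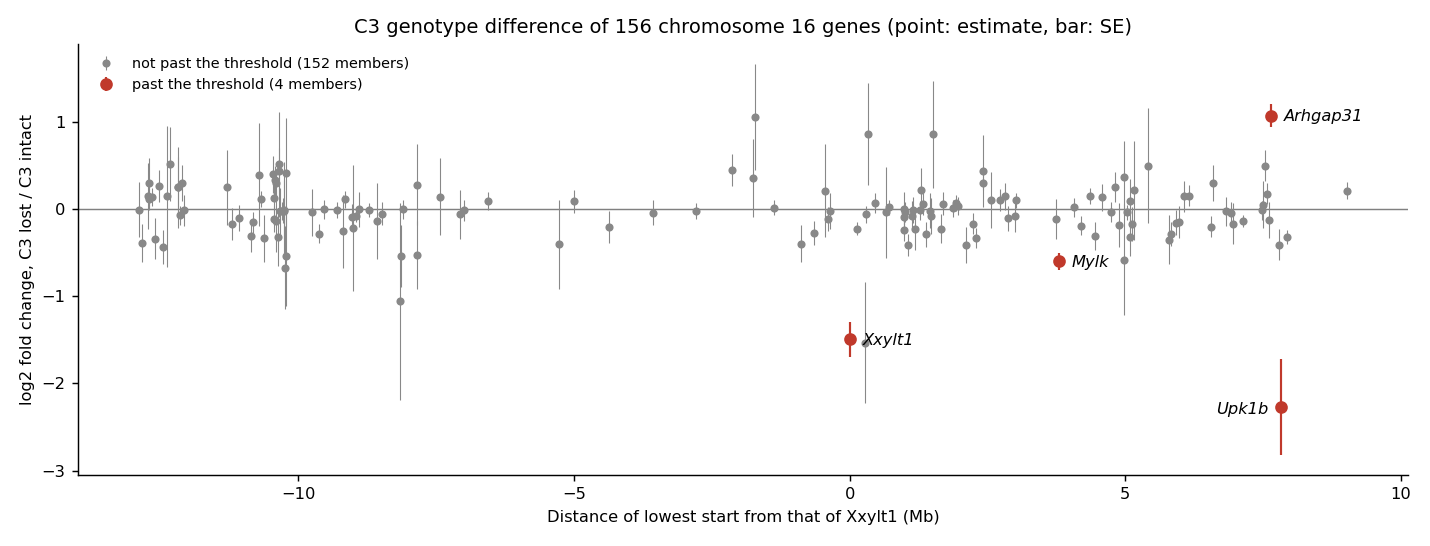
Log2 fold change of C3-lost over C3-intact retinas for the 156 members (points, with SE bars) against the distance of their lowest start from that of Xxylt1, in Mb. Red points are the 4 members past the threshold; the 77 members in front of Xxylt1 have a median of -0.01, and Arhgap31 and Upk1b, with 1 member between them, lie at 1.08 and -2.27.

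The limits of the rule cut through genes with small differences. The first member, Prodh (proline dehydrogenase, start 18060357), stood at -0.004 (SE 0.320), and Slc25a1, the nearest gene of sufficient count below the window (start 17925223), at -0.12 (SE 0.329). The last member, Lsamp (start 39984361), a neuronal adhesion protein and the most abundant member at 1440 CPM, stood at 0.21 (SE 0.101), and Gap43 above the window (start 42248442) at 0.08 (SE 0.122). At the count minimum, Liph (mean count 20.1) stood at -0.22 (SE 0.727), and AC169509.1, just under it (19.8), at 0.28 (SE 0.534).

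Described by role, 3 of the 4 members past the threshold fell in 2 groups, and Upk1b is in no role list. Of 7 glycan and glycolipid enzymes, Xxylt1 was lower and the other 6 did not pass; Alg3, a mannosyltransferase of N-glycan synthesis, stood at 0.44 (SE 0.269), and the group median was -0.08. Of 11 genes of the cytoskeleton, the cilium and small GTPase signalling, Arhgap31 was higher and Mylk lower. Pak2, a kinase that Cdc42 and Rac1 activate, stood at -0.41 (SE 0.131), and Acap2, a GTPase-activating protein for Arf6, at -0.22 (SE 0.0785).

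No member passed in the other 5 role groups. Of 19 genes of mitochondria and metabolism, 10 had values above 0 and 9 below, with Timmdc1, an assembly factor of respiratory complex I, at 0.50 (SE 0.180) and the polyamine transporter gene Atp13a3 at -0.27 (SE 0.135). Among 20 genes of synapses, adhesion, guidance and receptors, Igsf11, a synaptic adhesion protein, came nearest at -0.32 (SE 0.0802). It ranged from 72.6 to 108 CPM in C3-intact and from 56.7 to 72.7 in C3-lost libraries of run 1, and from 89.6 to 113 and 83.5 to 109.6 in run 2, so the ranges overlapped in both runs. Igsf11 passed when wildtype 6 (-0.33), wildtype 7 (-0.35), Gne+/- 5 (-0.33) or C3-/- 9 (-0.34) was left out. With all libraries kept, it passed with limma-voom and quality weights and with DESeq2. Among 21 genes of transcription, chromatin and DNA repair, the zinc-finger factor gene Zfp148 stood at 0.30 (SE 0.0817) and Eaf2, a partner of the elongation factor ELL, at -0.28 (SE 0.141). Zfp148 ranged from 67.5 to 96.4 CPM in C3-intact and from 85.9 to 122 in C3-lost libraries of run 1, and the ranges were 146 to 166 and 156 to 167 in run 2. With DESeq2, Zfp148 passed. The difference of its C3 effect between the runs, -0.43 (SE 0.157), did not pass the threshold.

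The role list of kinases, phosphatases and second messengers held 10 members and is not limited to these classes. In it, Gnb1l stood at -0.43 (SE 0.192) and Gsk3b, a kinase of Wnt and insulin signalling, at -0.14 (SE 0.0696). Of 30 genes of translation, protein turnover and trafficking, 7 had values above 0 and 23 below, with a median of -0.03. Snx4, a sorting nexin of endosomal recycling, stood at -0.34 (SE 0.114), the peptidase gene Lmln at -0.41 (SE 0.202), the clathrin adaptor subunit gene Ap2m1 at 0.33 (SE 0.167) and Abcf3 at 0.30 (SE 0.148). Outside the role lists, Eif2b5, which encodes a subunit of the translation initiation factor eIF2B, stood at 0.40 (SE 0.215), Mb21d2 at 0.45 (SE 0.183) and Magef1 at -0.28 (SE 0.106). Atp13a5 had the highest value of the members that did not pass, 1.06 (SE 0.611), at a mean count of 20.96.

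**Figure D3:**
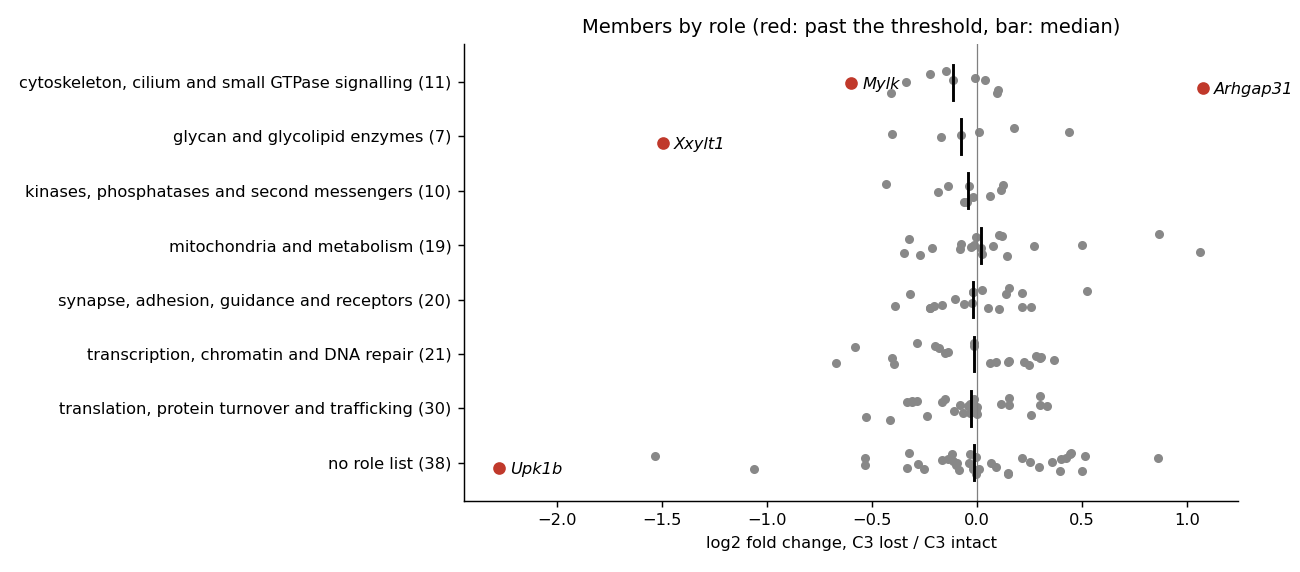
Log2 fold change of C3-lost over C3-intact retinas for the members of each role list, with the number of members in brackets and the group median as a black bar. Red points are the members past the threshold; the 30 genes of translation, protein turnover and trafficking hold none of them and have a median of -0.03.

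Genes that act with Xxylt1, Mylk and Arhgap31 were counted from 3 lists that include other chromosomes. Each list holds the gene it was built around, on which the stretch was chosen, and over all tested genes 0.287% were higher and 0.281% lower. Of 26 tested Notch receptors, ligands, targets and O-glycan enzymes, 0 were higher and 1 was lower, Xxylt1 itself. Lfng, the fringe enzyme that modifies Notch O-fucose, stood at 0.78 (SE 0.224), Notch2 at -0.51 (SE 0.170), and Gxylt1, the xylosyltransferase that acts just before Xxylt1, at 0.11 (SE 0.146). Of 22 tested genes of the myosin light chain kinase pathway and smooth muscle contraction, Rock2, a kinase that raises myosin phosphorylation, was higher at 0.91 (SE 0.176) and Mylk was lower. The Rock2 difference was 1.32 (SE 0.163) in run 1 and 0.07 (SE 0.230) in run 2. The non-muscle myosin gene Myh10 stood at -0.27 (SE 0.0909). Of 19 tested Cdc42 and Rac1 signalling genes, Arhgap31 was higher and 0 were lower, and Cdc42 itself stood at -0.0002 (SE 0.0706).

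Markers of contractile wall cells and of other retinal and neighbouring cell types were read beside these values. The 7 markers of pericytes and smooth muscle (Acta2, Myh11, Tagln, Rgs5, Pdgfrb, Kcnj8, Cspg4) summed to 21.1 to 79.7 CPM in C3-intact and 23.5 to 52.4 in C3-lost libraries of run 1. In run 2 the sums were 38.4 to 41.4 and 30.3 to 45.1 CPM. All 7 were tested, 0 passed, and their median was -0.15. The 5 endothelial markers summed to 375 to 501 and 380 to 496 CPM in run 1 and to 408 to 452 and 333 to 371 CPM in run 2. In run 2 the 2 sets did not overlap, which was so for 2.37% of single tested genes. All 5 were tested and 0 passed, with 2 values above 0 and 3 below. The 5 pigment epithelium markers summed to 206 to 800 and 418 to 753 CPM in run 1, and to 77.9 to 103 and 55.3 to 281 CPM in run 2. Of the 6 ganglion cell markers, 5 were tested and Pou4f1 passed at 0.54 (SE 0.110). None of the 4 tested lens markers and none of the 6 microglia markers passed. The part of these cell types in the differences of the members was not tested.

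The Gne genotype, which the choice of the stretch did not use, moved no member past the threshold. With Gne+/- set against Gne+/+ over both C3 genotypes, edgeR's quasi-likelihood test called 0 of 156 members (0.00574% of all tested genes). At an unadjusted p under 0.05 there were 8 members, or 5.13%, against 3.30% of all tested genes, and the smallest adjusted p was 0.9999. DESeq2 called 0 members with 9 at an unadjusted p under 0.05 (5.77%, against 3.93% of all), and limma-voom with quality weights 0 with 16 (10.3%, against 6.12%). The log2 fold change of Gne loss was -0.05 (SE 0.189) for Xxylt1, 0.23 (SE 0.0946) for Mylk, 0.01 (SE 0.134) for Arhgap31 and -0.44 (SE 0.511) for Upk1b. In run 1, for example, Arhgap31 averaged 36.4 ± 11.6 CPM in wildtype (SD, n = 5) and 35.98 ± 13.7 in Gne+/- (n = 5) retinas, while C3-/- retinas averaged 70.8 ± 9.27 (n = 4) and those of Gne+/- C3-/- mice 81.5 ± 14.7 (n = 4).

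The C3 effect was not shown to depend on the Gne genotype for any member. The interaction test of edgeR called 0 of 156 members (0% of all tested genes), with 4 members at an unadjusted p under 0.05 (2.56%, against 3.18% of all) and a smallest adjusted p of 0.9998. DESeq2 called 0 with 5 (3.21%, against 3.87%), and limma-voom 0 with 12 (7.69%, against 7.43%). The difference of the C3 effect, Gne+/- minus Gne+/+, was -0.05 (SE 0.377) for Xxylt1, 0.07 (SE 0.189) for Mylk, 0.20 (SE 0.267) for Arhgap31 and -0.48 (SE 1.05) for Upk1b. The errors leave room for differences of sizes that these numbers of mice could not resolve.

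Whether the C3 effect had the same size in both sequencing runs was tested in a model with a C3 by run term. edgeR's quasi-likelihood test called 0 of 156 members (0.0345% of all tested genes), with 10 at an unadjusted p under 0.05 (6.41%, against 4.15% of all) and a smallest adjusted p of 0.683, that of Mb21d2. DESeq2 called 0 with 9 at an unadjusted p under 0.05 (5.77%, against 4.97%), and limma-voom called 1, Mb21d2, with 20 (12.8%, against 8.55%). The C3 sets also differed in the Y-linked reading, in opposite directions in the 2 runs, so the C3 by run term does not separate run from it. With the mean log2 CPM of the Y-linked genes added, edgeR called 0 members, with 19 at an unadjusted p under 0.05. Over all 17409 tested genes 1668 were at that level, against 722 without the addition. In simulated data the C3 by run test recovered 16% of 2-fold and 42% of 4-fold differences.

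For Xxylt1 the C3 effect was -1.85 (SE 0.219) in run 1, a 3.60-fold lower level, and -0.79 (SE 0.289) in run 2, a 1.73-fold lower one. In C3-lost retinas Xxylt1 averaged 7.00 ± 1.76 CPM in run 1 (SD, n = 8) and 18.5 ± 3.499 in run 2 (n = 5), while in C3-intact retinas it averaged 25.2 ± 9.64 (n = 10) and 31.98 ± 7.10 (n = 4). The difference between runs was 1.05 (SE 0.360, edgeR adjusted p = 0.938), and it stood between 0.92 and 1.48 under the 7 other settings, past the threshold in none of them. The run 1 and run 2 values of the others stood side by side as follows. Mylk had -0.64 (SE 0.117) and -0.51 (SE 0.162), Arhgap31 1.07 (SE 0.165) and 1.07 (SE 0.239), and Upk1b -2.74 (SE 0.663) and -1.31 (SE 0.878). The difference between runs was -0.001 (SE 0.290) for Arhgap31 and 1.08 (SE 0.332) for Mb21d2. In the same model 6 members passed for the C3 effect of run 1 (0.712% of all tested genes), the 4 above with Zfp148 and Igsf11, and 0 for that of run 2 (0.0862%; 12 members, or 7.69%, at an unadjusted p under 0.05, against 3.56% of all). In a fit of run 2 alone, which holds 9 libraries, Arhgap31 and Mb21d2 passed. Mb21d2 there measured 15.1 and 9.31 CPM in wildtype, 8.53 and 7.70 in Gne+/-, 18.6, 23.8 and 23.7 in C3-/-, and 24.8 and 24.1 in Gne+/- C3-/- retinas, whereas in run 1 its ranges were 17.2 to 46.7 and 21.8 to 37.3 CPM and overlapped.

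Counted without a model, 2 members had C3-lost libraries that lay wholly on 1 side of the C3-intact ones in both runs, Arhgap31 above (0.0574% of all tested genes) and Xxylt1 below (0.0517%). In run 1 these same 2 did so, or 0.287% of all tested genes. In run 2, with 4 against 5 libraries, 8 members did, and 2.37% of all tested genes.

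**Figure D4:**
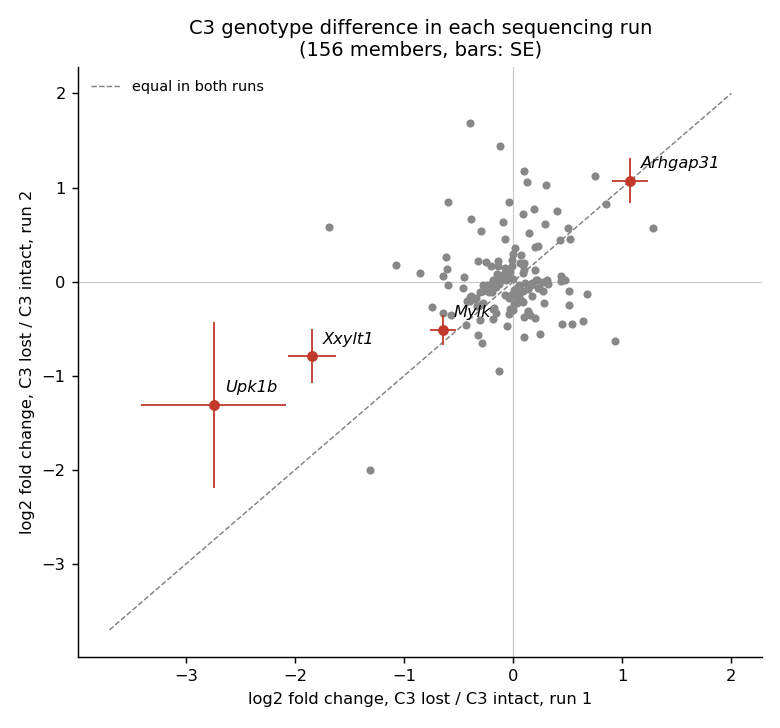
Log2 fold change of C3-lost over C3-intact retinas in sequencing run 2 against that in run 1 for the 156 members, with SE bars for the 4 past the threshold and a dashed line where both are equal. Arhgap31 lies on the line at 1.07, Mylk close to it, and Xxylt1 above it at -1.85 and -0.79.

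The runs themselves differed for most members, and since both runs held all 4 genotypes this was fitted as a term. Between run 2 and run 1, 106 of 156 members passed (56 higher, 50 lower), or 67.9%, against 59.5% of all tested genes, 30.3% higher and 29.2% lower. Of the 30 genes of translation, protein turnover and trafficking 15 were higher and 10 lower, and of the 7 glycan and glycolipid enzymes 1 was higher and 5 were lower. Among named members, B4galt4 was lower in run 2 at -1.997 (SE 0.208) and Eaf2 at -1.02 (SE 0.156), and Pak2 was higher at 1.31 (SE 0.134) and Zfp148 at 0.81 (SE 0.0845), each past the threshold of edgeR's test. Arhgap31 (-0.16, SE 0.143) and Upk1b (-0.22, SE 0.593) did not pass. What set the runs apart was not tested.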

How the data were processed

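Retinal total RNA (100 ng per library) was sequenced with a 3′ kit, per the labels' protocols. The authors deposited a raw, unnormalized count for every gene and library. Alignment used STAR 2.7.3a and counting featureCounts of Subread 2.0.0, against GRCm38 and mm10, per the submitters' processing notes; the version was 2.0.3 and the annotation Ensembl release 101, per the file headers. Exons and whole genes were counted with no strand setting, per the file headers, so introns count, and reads over several genes do not. Member positions equalled GENCODE M21 for 100% of members.

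The analysis ran in edgeR 4.0.16 under R 4.3.3 (filterByExpr by group, minimum count 10; TMM; robust quasi-likelihood test; 22 residual degrees of freedom; common biological coefficient of variation 55.1%). The model held 4 genotype groups and the sequencing run, and the C3 by run model held Gne, C3, run and C3 by run. Adjustment of p-values (Benjamini and Hochberg) covered 17409 genes, with a threshold of 0.05. SE values come from the quasi-likelihood F statistic. A log2 fold change compares C3 lost with C3 intact unless named otherwise. Every library is labelled as a mouse of its own, and no duplicate was seen (chi-square per degree of freedom at least 8.08 over 78 pairs of a group). The steps were tested on simulated data, where they recovered 48% of 2-fold and 79% of 4-fold changes for C3. These shares were 57% and 79% for Gne, 21% and 59% for the interaction, and 16% and 42% for C3 by run.

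At the count minimum used, 1 further gene of the window is not reported here. The members, the role, pathway and marker lists and the alternatives were chosen with earlier results of these data known. Named genes were Xxylt1, Mylk and Arhgap31, members past the threshold for C3, Gne or their interaction, the next by p up to 10 higher and 10 lower for C3, up to 2 per role list, members at the limits of the rule, and up to 3 tested genes per pathway list. Gxylt1, Cdc42, Crygs, Pou4f1 and the genes elsewhere on chromosome 16 were chosen after their values were seen. The tests were repeated with RLE factors, without a low-count filter, keeping genes over 1 CPM in 6 or more libraries, with DESeq2 1.42.0, with limma-voom 3.58.1 and quality weights, and with no run term, each run alone, a block on mouse number, the mean log2 CPM of 4 Y-linked genes as a term, and each of the 27 libraries left out. The last of these, and the alternatives of the C3 by run test, were chosen after seeing the data.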

Additional observations from a re-analysis of the deposited data

Results flagged for a closer look

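Over 26 named members and the 4 genotypes, 6 of 104 groups held a library far from the others of its group on the run-centred log2 scale, where chance gives about 1 in 20. Alg3 measured 0.849 CPM in wildtype 4, the lowest of 7 libraries. Igsf11 measured 109.6 CPM in C3-/- 9, the highest of 7. Acap2 measured 53.4 CPM and Lmln 5.29 CPM in Gne+/- C3-/- 6, each the lowest of 6. Gnb1l measured 8.04 CPM in Gne+/- C3-/- 8, the lowest of 6, and Eaf2 measured 14.8 CPM in Gne+/- 1, the lowest of 7 after centring within runs, although the 2 libraries of run 2 had lower CPM (9.93 and 9.97).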

How the results depend on the processing

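With RLE factors, with no low-count filter or a stricter one, in run 1 alone, and with limma-voom or DESeq2, 4 to 6 members passed for C3, against 4 in the main analysis. Without the run term 2 passed, and in run 2 alone 2. Over all genes, 99 passed for C3, against 447 with no filter, 43 without the run term, 34 in run 2 alone, 181 with limma-voom and 171 with DESeq2. For C3-/- against wildtype, 3 members passed, against 0 without the run term, 1 in run 1 alone and 0 in run 2 alone. Over all genes these counts were 29, 13, 30 and 28, in that order. For Gne+/- C3-/- against Gne+/-, 2 passed, against 5 with no filter and 5 with DESeq2. Without the run term, in run 1 alone and in run 2 alone, 1 passed. Over all genes the counts of these 6 settings were 33, 306, 87, 13, 39 and 11, in that order. With no filter, 1 member (Crygs) passed for Gne, 1 (Crygs) for the interaction, and 1 (Crygs) for the difference between runs, where limma-voom gave 1 (Mb21d2). Every other setting left these 3 counts at 0. The causes were not tested. With 1 library left out, 3 to 5 members passed for C3, 0 for Gne, 0 for the interaction and 0 for the difference between runs. Over all genes, 86 to 120 then passed for C3. A count minimum of 10 or 50 gave 173 or 136 members.

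Because the stretch was chosen on the C3 contrast, the C3 calls in this section describe the settings and test nothing anew. Arhgap31 passed for C3 under all 10 alternatives (1.05 to 1.18). Xxylt1 passed in all but run 2 alone (-0.77). Upk1b lost its call without the run term (-2.33), in run 2 alone (-1.45), with the mouse block (-2.13) and with the Y-linked term (-2.08).

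Mouse numbers recur across genotypes. Deviations of libraries with the same number and run had a median correlation of 0.0069 (31 pairs, 9 of them, or 29.0%, over 0.1), against -0.0011 over 120 pairs with different numbers (14, or 11.7%, over 0.1). In run 2 the deviations of a group of 2 libraries mirror each other, so those pairs say little. In run 1, same-number values ran from -0.079 to 0.393 and different-number values from -0.469 to 0.406. The pairs reuse the same libraries, so these values do not decide whether the numbers pair the mice, and that was not tested. The main model did not pair mice by number. With the replicate block on mouse number, which also takes up run, 3 members passed for C3, 2 for C3-/- against wildtype, 2 for Gne+/- C3-/- against Gne+/-, 0 for Gne, 0 for the interaction and 0 for the difference between runs.

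Depth limits the faintest members: Upk1b averaged 72.3 counts, Atp13a5 20.96 and Liph 20.1.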

Other observations

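Crygs, which encodes the lens protein gamma-S-crystallin, was picked after its values were seen. In run 1 it measured 230, 40.03, 51.6, 477 and 74.3 CPM in the 5 Gne+/- libraries, and 50.1, 0.544, 3.40, 0 and 0 CPM in the 5 wildtype libraries. The C3-lost libraries of run 1 reached 42.2 CPM in C3-/- (lowest 0) and 53.8 in Gne+/- C3-/- (lowest 0.553). In run 2 it was at 15.6 CPM or less in all 9 libraries. Its log2 fold change of Gne loss was 2.43 (SE 1.11) and did not pass the threshold of edgeR's test, and it passed with no filter on low counts. The lens markers Crybb1, Crybb3, Mip, Gja3, Cryba1 and Lim2 summed in run 1 to 0.114 to 9.11 CPM in wildtype, 4.82 to 72.0 in Gne+/-, 0.300 to 5.57 in C3-/- and 2.68 to 7.76 in Gne+/- C3-/- libraries, with Cryba1 listed at 0. In run 2 these sums were 2.81 to 7.75 CPM in wildtype, 3.72 to 4.23 in Gne+/-, 3.54 to 4.67 in C3-/- and 3.43 to 15.1 in Gne+/- C3-/- libraries. Over both runs, the 4 tested lens markers had values above 0 for Gne loss, as Crygs did. Their median log2 fold change was 1.96, and 0 passed. The part of lens tissue in the Crygs values was not tested.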
